A study of Rattus norvegicus with 4 samples.

Results

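The 47 genes described here encode parts of the synapse, the enzymes and carriers that make and load neurotransmitters, glutamate receptors, voltage-gated channels and a few other proteins of neurons. They were chosen by name, and all 47 of the listed symbols had 1 or more probe sets among the 14217 named genes of the array. RNA came from hippocampal progenitor cells of Fisher 344 rats, an early-passage culture that divides and can form neurons or glia, after 4 days in medium with N2 supplement. The 4 groups were KHS101 at 5 uM, KHS101 at 1.7 uM, 1 uM retinoic acid with forskolin as positive control, and DMSO (0.1%, per the labels' protocols) as negative control, with 1 array each. KHS101 is a synthetic compound tested for whether it drives progenitors to become neurons, retinoic acid is a vitamin A derivative that acts through nuclear receptors, and forskolin raises cyclic AMP. The series description names retinoic acid alone as the positive control and the sample's label adds forskolin, with no amount, so whether this culture received forskolin is not settled; the group is named here as its label has it. All groups were plated at 1000 cells per square centimetre, and none of the labels names a genetic change.

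At a chemical synapse, transmitter is loaded into vesicles that fuse with the presynaptic membrane by means of SNARE proteins when calcium enters. On the other side, scaffold proteins of the postsynaptic density hold glutamate receptors and the calcium/calmodulin-dependent kinase CaMKII. Voltage-gated sodium and potassium channels shape the action potential. Transcripts of this machinery accumulate as neurons mature, and several of them are also made by progenitors and by cells of the oligodendrocyte lineage.

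Expression is given as the deposited log2 value of a probe set, a group of short probes against the 3' part of a transcript. Values at or under log2 = 5 were treated as the floor, the limit of specific signal, and set to it before differences were taken. A gene was measured in a comparison if 1 or both arrays were above the floor, and a call, higher or lower, needed a log2 difference of 1 or more (2-fold). Where one of the arrays compared was at the floor, only a lower limit of the difference is known, and it is written "at least". With 1 array a group there is no replicate check and no p-value, and precision is limited by having so few arrays. Levels of different genes were not compared, since each probe set has its own response. The summed marker levels below add such probe sets, so those with high values weigh most in them.

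Between 8389 and 8471 genes were above the floor on each array. Of the markers of neural progenitors, Nes, Sox2, Vim and Fabp7 were above the floor on all 4 arrays, and Pax6, Prom1 and Hes5 were at it. The level summed over the progenitor list was 0.588 of that in DMSO with KHS101 at 5 uM, 0.789 at 1.7 uM and 0.918 with the positive control. Fabp7 was lower at both concentrations, by 4.33-fold and 2.31-fold, and Vim with the positive control, by 2.16-fold. These were the only calls among the 4 measured progenitor markers. Some differences were above 0: 1 at 5 uM (0.52), 2 at 1.7 uM (up to 0.61) and 1 with the positive control (0.50). The part of progenitor markers in the members' values was not tested. Of 8 markers of immature neurons, Dcx, Neurod1 and Stmn2 were at the floor on all arrays. The level summed over the immature neuron list on the unlogged scale, relative to DMSO, was 1.12 with KHS101 at 5 uM, 1.30 at 1.7 uM and 1.85 with the positive control. The median log2 differences of the 5 measured were 0.05, 0.27 and 0.45 in this order, with 2, 1 and 2 of them below 0. None of the 5 was called with KHS101, and 2 were higher with the positive control, beside 4.34% of all genes. Of 8 markers of mature neurons that are not among the 47, 3 were above the floor, with summed levels of 1.28, 1.30 and 1.13 in the same order. Of these 3, 1 was higher at each KHS101 concentration, beside 6.16% and 4.36% of all genes, and 0 with the positive control. All 8 microglia and macrophage markers were at the floor on each array, and so were 6 of 7 fibroblast markers, with Postn above it on the 3 treated arrays. Of 5 endothelial markers on the array, Kdr alone was above the floor, with the positive control. The beta-actin controls, a sign of RNA quality, read higher at the 3' than at the 5' end by 1.26 in DMSO and by up to 1.54 on the log2 scale with KHS101 at 5 uM; the part of this in the results was not tested. In RNA from a whole culture, more cells of a type and more RNA per cell cannot be told apart.

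The 250 bases before the RefSeq start of 4 of the called genes are shown as the regulatory context of genes that moved together or apart: Gad1, Eno2 and Camk2b, which were higher at both KHS101 concentrations, and Ncs1, which was lower with the positive control. Capitals mark matches, on either strand, to TGACG (the core of the cyclic AMP response element), CANNTG (the E-box bound by proneural factors) or AGGTCA (the motif of retinoid receptors). The letters come from RefSeq, build GRCr8, at chr3:75777202-75777451 (plus strand) for Gad1, chr4:159267221-159267470 (minus) for Eno2, chr14:85147945-85148194 (minus) for Camk2b and chr3:34920699-34920948 (plus) for Ncs1.
Gad1: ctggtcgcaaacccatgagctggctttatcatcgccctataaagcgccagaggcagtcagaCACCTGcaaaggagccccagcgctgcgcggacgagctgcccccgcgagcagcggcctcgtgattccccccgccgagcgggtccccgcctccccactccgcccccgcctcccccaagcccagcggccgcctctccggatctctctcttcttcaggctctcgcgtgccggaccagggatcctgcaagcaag
Eno2: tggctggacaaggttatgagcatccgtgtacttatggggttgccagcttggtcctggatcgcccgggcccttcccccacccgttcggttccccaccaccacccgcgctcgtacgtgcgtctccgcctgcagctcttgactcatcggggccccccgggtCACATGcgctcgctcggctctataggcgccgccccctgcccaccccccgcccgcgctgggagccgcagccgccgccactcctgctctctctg
Camk2b: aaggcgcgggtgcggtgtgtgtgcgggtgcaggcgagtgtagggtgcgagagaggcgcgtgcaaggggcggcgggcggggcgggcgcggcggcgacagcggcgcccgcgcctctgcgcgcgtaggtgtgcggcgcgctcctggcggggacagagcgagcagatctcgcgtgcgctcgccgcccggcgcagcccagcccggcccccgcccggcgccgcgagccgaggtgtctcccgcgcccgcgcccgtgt
Ncs1: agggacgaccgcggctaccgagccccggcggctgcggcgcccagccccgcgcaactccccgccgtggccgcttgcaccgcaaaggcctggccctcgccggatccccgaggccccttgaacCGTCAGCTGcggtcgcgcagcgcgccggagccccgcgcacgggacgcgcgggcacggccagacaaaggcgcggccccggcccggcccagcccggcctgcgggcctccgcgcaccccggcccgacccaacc
The Gad1 and Eno2 windows held 1 E-box each, the Ncs1 window 1 E-box that overlaps 1 match to TGACG, and the Camk2b window none of the 3 motifs. Among the 10 of 13 called genes with an entry in the promoter table (12 windows), 4 had a window with CANNTG, 2 with TGACG and 0 with AGGTCA. Over all 33469 windows of this length the shares were 65.5%, 18.2% and 14.1%. These are shares of windows, whereas the counts for the called genes are of genes, so the units differ. A match is a string of letters and shows no binding.

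Of the 47 genes, 17 were above the floor on all 4 arrays, 6 on some of them and 24 (51.1%) on none. For comparison, 60.8% of all named genes were above it on 1 or more arrays. Those at the floor on all arrays included most of the transmitter genes: Gad2, the second GABA-making enzyme, Slc32a1, which loads GABA into vesicles, and Slc17a6 and Slc17a7, which load glutamate. Of the vesicle genes they were Syn2, the SNARE gene Snap25, Stx1a and Vamp1. Of the postsynaptic genes they were Dlg2, Dlg3, Shank1 and Camk2a. The receptor subunits Gria1, Grik2, Grin1, Grin2a and Grin2b were at the floor, which left no subunit of NMDA receptors from this list above it, as were the channel genes Scn1a, Scn2a, Kcnd2, Cacna1a and Cacnb4. Nefl, a neurofilament subunit, and Rbfox3, which encodes the neuronal nuclear antigen NeuN, completed this group. A value at the floor is compatible with a low level that these probes do not resolve.

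**Figure D1:**
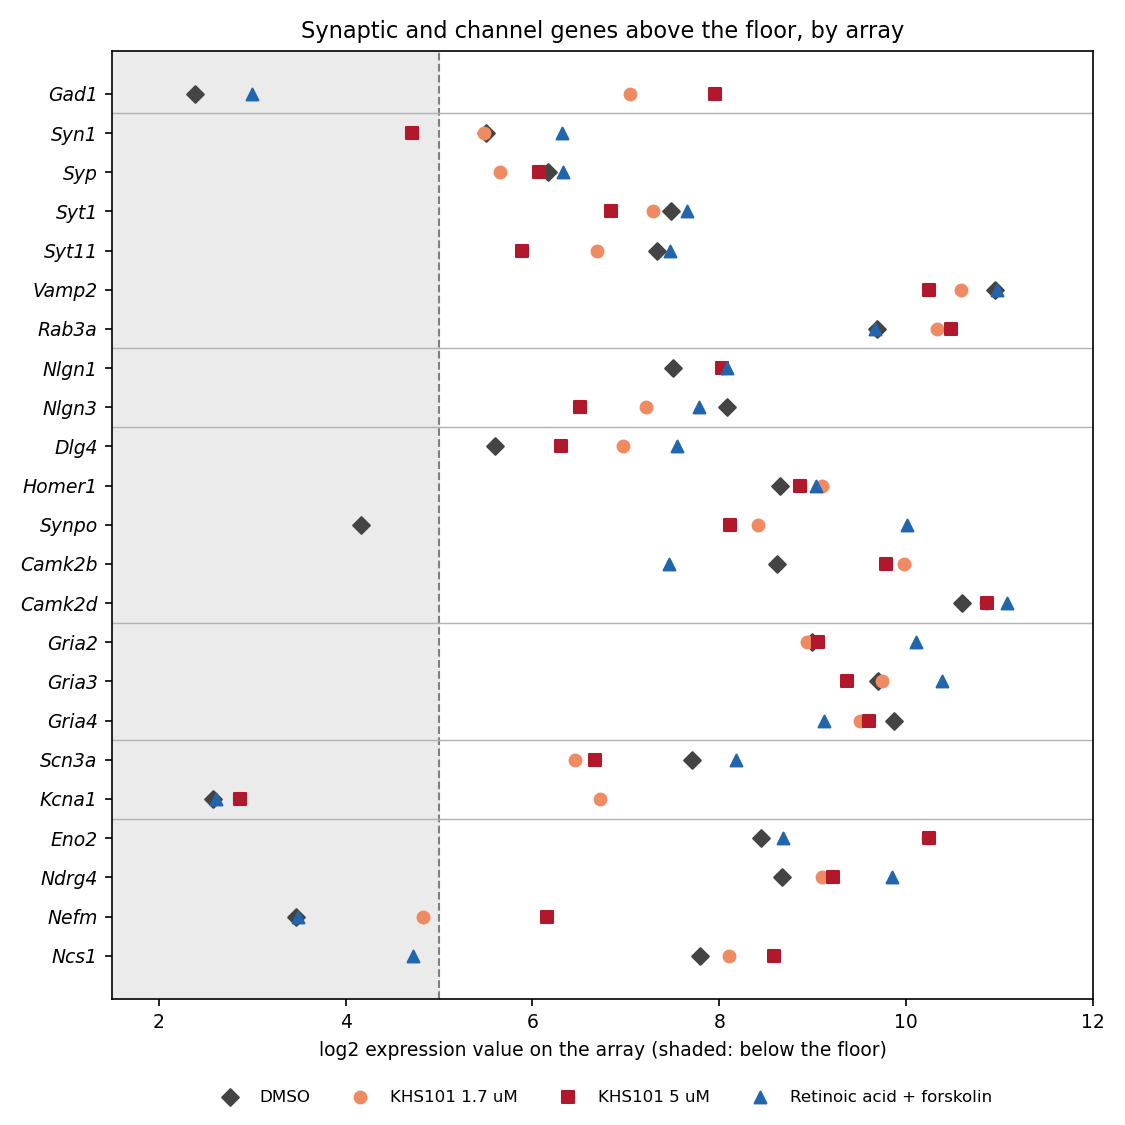
The 23 genes above the floor on 1 or more arrays, in the order of their roles, with the log2 value on the x axis and 1 symbol for each array; the shaded area lies under the floor of log2 = 5. Gad1 is above the floor with KHS101 only, Kcna1 and Nefm on 1 array each, and Synpo on all arrays but DMSO.

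The first question was how this machinery differed between KHS101 and DMSO. At 5 uM, 5 of 22 measured genes were higher and 3 lower, where 6.16% of all measured genes were higher and 8.10% lower. At 1.7 uM, 6 of 22 were higher and 1 was lower, against 4.36% and 4.27% of all genes. The median log2 difference of the measured members was 0.24 at 5 uM and 0.29 at 1.7 uM, beside 0.00 and -0.01 over all measured genes. A member that is measured only because 1 array is above the floor starts away from 0, and 3 of the calls at each concentration are such bounds. Among the 18 members above the floor on both arrays at 5 uM, 2 were higher and 3 lower (5.43% and 7.79% of all such genes), and among the 19 at 1.7 uM, 3 were higher and 1 lower (3.74% and 4.15%). The median difference over these members was 0.13 at 5 uM and 0.04 at 1.7 uM. Both comparisons use the same DMSO array.

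Gad1, which encodes the GABA-making enzyme GAD67, had log2 values of 7.95 with KHS101 at 5 uM, 7.04 at 1.7 uM, 2.998 with the positive control and 2.38 in DMSO. It was above the floor on the KHS101 arrays alone, and these differed from each other by 0.91 on the log2 scale, short of 2-fold. The difference from DMSO was at least 7.75-fold (log2 2.95) at 5 uM and at least 4.12-fold (2.04) at 1.7 uM. The other probe set of Gad1 was at the floor on all 4 arrays, and with the mean of both the difference at 5 uM was 0.55.

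Eno2, the neuronal form of the glycolytic enzyme enolase, had values of 10.25 at 5 uM, 10.23 at 1.7 uM, 8.68 with the positive control and 8.45 in DMSO. Both KHS101 arrays were high and close to each other, and the remaining arrays were low. It was 3.48-fold higher than DMSO at 5 uM and 3.44-fold at 1.7 uM, and the difference with the positive control was 0.23 on the log2 scale. Nefm, the medium neurofilament subunit, had values of 6.15 at 5 uM, 4.82 at 1.7 uM, 3.49 with the positive control and 3.47 in DMSO. Only the 5 uM array was above the floor, at least 2.23-fold above DMSO. With a floor of log2 = 6 that difference was 0.15 and no longer a call.

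Of the 5 measured postsynaptic genes, 2 were higher with KHS101 at 5 uM and 3 at 1.7 uM, and 0 were lower, beside the 6.16% and 4.36% of all genes that were higher. The medians were 0.70 and 1.37, and all 5 differences were above 0 at both concentrations and under each scaling of the arrays, as were 4 of 5 with the positive control. Synpo, among these 5, was measured only through the treated arrays, so its difference could only be above 0. The other adhesion and postsynaptic genes, outside the 47, had 15 of 21 differences below 0 at 5 uM and 14 of 21 at 1.7 uM. Synpo encodes synaptopodin, an actin-binding protein of dendritic spines. Its values were 8.11 at 5 uM, 8.42 at 1.7 uM, 10.01 with the positive control and 4.17 in DMSO, so that DMSO alone was at the floor. It was at least 8.65-fold higher at 5 uM and at least 10.7-fold at 1.7 uM. Its other probe sets, 2 in number, were at the floor on all arrays.

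Camk2b, the beta subunit of CaMKII, had values of 9.78 at 5 uM, 9.98 at 1.7 uM, 7.46 with the positive control and 8.61 in DMSO. The KHS101 arrays stood above DMSO and the retinoid array below it. KHS101 gave 2.25-fold higher values at 5 uM and 2.58-fold at 1.7 uM. The other probe set of Camk2b differed from DMSO by 1.22 and 1.12 on the log2 scale, past 2-fold as well. Dlg4 encodes PSD-95, the main scaffold of the postsynaptic density, and had values of 6.31, 6.97, 7.55 and 5.60 in the same order of arrays. DMSO was lowest and the retinoid array highest. It was 2.59-fold higher at 1.7 uM and 1.63-fold, short of a call, at 5 uM. The other Dlg4 probe set above the floor differed by -0.02 at 1.7 uM and by 0.01 with the positive control, so the call rests on 1 probe set, and with a floor of log2 = 6 the difference at 1.7 uM was 0.97. Homer1, a scaffold that links receptors to calcium stores, differed by 0.21 at 5 uM and 0.45 at 1.7 uM. Camk2d, the delta subunit of CaMKII, differed by 0.27 and 0.26, and its other probe set above the floor by 0.16 and -0.25, the opposite sign at 1.7 uM.

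Of the 6 measured vesicle genes, 1 was lower with KHS101 at 5 uM and 0 at 1.7 uM, and 0 were higher. Over all genes, 8.10% and 4.27% were lower and 6.16% and 4.36% higher. The differences of 5 of the 6 were below 0 at both concentrations and under each scaling, with medians of -0.57 at 5 uM and -0.28 at 1.7 uM. At 5 uM these include Syn1, which was measured only through the DMSO array, so its difference could only be below 0. The 17 measured vesicle genes outside the members were split, with 9 differences above 0 and 8 below at 5 uM and 8 above and 9 below at 1.7 uM. The 1 call was Syt11 at 5 uM. It encodes a synaptotagmin that does not bind calcium, and its values were 5.88 at 5 uM, 6.69 at 1.7 uM, 7.47 with the positive control and 7.33 in DMSO. The 5 uM array was lowest and the 1.7 uM array next, 2.73-fold and 1.56-fold below DMSO. The calcium sensor gene Syt1 differed by -0.64 at 5 uM and -0.19 at 1.7 uM. Vamp2, the vesicle SNARE, differed by -0.71 and -0.37, and the vesicle membrane gene Syp by -0.10 and -0.51. Syn1, which tethers vesicles to the cytoskeleton, was at the floor at 5 uM, a log2 difference of -0.50 or beyond, and differed by -0.02 at 1.7 uM. Rab3a, a small GTPase of vesicle docking, differed by 0.80 and 0.65, with its other probe set above DMSO too.

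Nlgn3 and Scn3a were the other genes lower with KHS101. Nlgn3 encodes neuroligin 3, a postsynaptic adhesion protein, and had values of 6.51 at 5 uM, 7.22 at 1.7 uM, 7.78 with the positive control and 8.08 in DMSO. The arrays of both concentrations were the lowest, and the difference was 2.97-fold at 5 uM and 1.81-fold at 1.7 uM. The other probe set of Nlgn3 differed by -0.96 at 5 uM, by -0.29 at 1.7 uM and by -0.24 with the positive control. Its paralogue Nlgn1 differed by 0.53 and 0.52, in the upward direction on both probe sets.

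Scn3a, a sodium channel of the immature brain, had values of 6.67 at 5 uM, 6.45 at 1.7 uM, 8.18 with the positive control and 7.71 in DMSO. Both KHS101 arrays were below the others, by 2.05-fold and 2.40-fold against DMSO. Quantile normalisation took the 5 uM difference to -0.998, just inside the threshold. Kcna1, a potassium channel of axons, was above the floor on the 1.7 uM array alone, with values of 2.87, 6.72, 2.61 and 2.58 for KHS101 at 5 uM and 1.7 uM, the positive control and DMSO. The difference from DMSO was at least 3.30-fold at 1.7 uM, from 1 probe set, and with a floor of log2 = 6 it was 0.72 and no call. The AMPA receptor subunit genes Gria2, Gria3 and Gria4 differed from DMSO by between -0.37 and 0.06 with KHS101, and the other probe set of Gria2 by -0.92 at 5 uM.

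Markers of the oligodendrocyte lineage moved in the same comparisons. Of 7 measured, 6 were lower at 5 uM and 2 at 1.7 uM, beside 8.10% and 4.27% of all genes. The level summed over the list was 0.44 and 0.65 of that in DMSO, and 1.30 with the positive control. Cspg4 was at the floor on all arrays, and Mog on all but the retinoid array. The part of such cells in the lower values of Syt11, Nlgn3 and Scn3a was not tested.

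**Figure D2:**
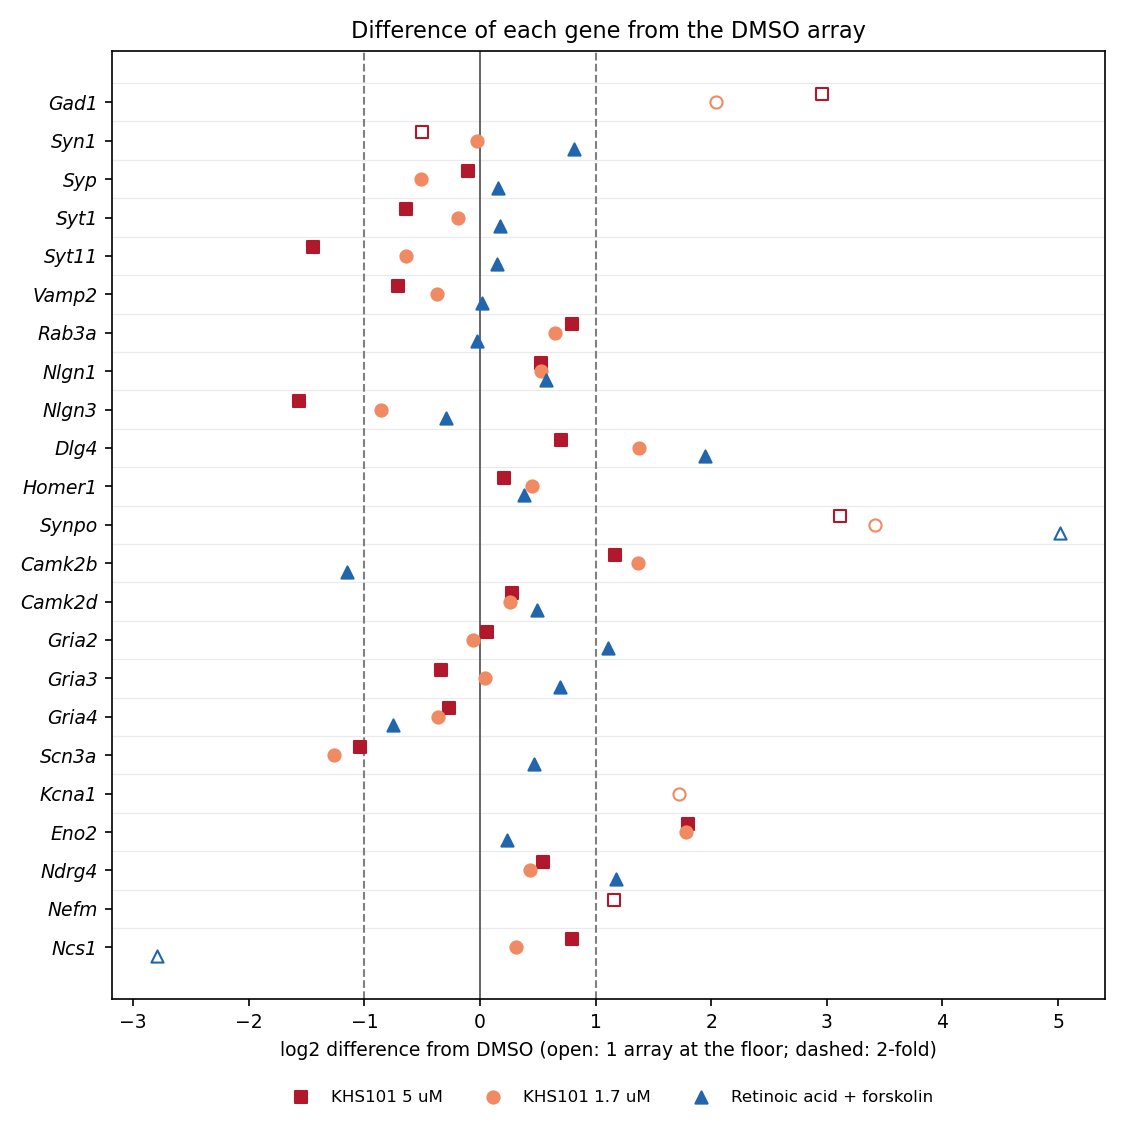
Log2 difference from the DMSO array for each measured gene, with 1 symbol for each treatment; open symbols are bounds, with 1 array at the floor, and dashed lines mark 2-fold. Camk2b lies past 2-fold upward with KHS101 and past 2-fold downward with the positive control, and Synpo is past 2-fold upward on all treated arrays.

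The step between the KHS101 concentrations asked whether the members followed the dose. Of 23 measured genes, 1 was higher at 5 uM, Nefm, and 1 was lower, Kcna1, beside 0.812% and 1.73% of all genes. Both are bounds from a single array, at least 2.23-fold and at least 3.30-fold, and neither held with a floor of log2 = 6. None of the 20 members above the floor on both KHS101 arrays passed 2-fold (0.741% of all such genes were higher and 1.65% lower), and their median difference was 0.01. Called at both concentrations were 4 genes higher (Gad1, Synpo, Camk2b and Eno2) and 1 lower (Scn3a), and 0 were called in opposite directions. Among these 5, the difference of 5 uM from 1.7 uM was 0.91 on the log2 scale for Gad1, and those of the other 4 ran from -0.31 to 0.22. The differences of Syt11 (-0.81), Nlgn3 (-0.71) and Dlg4 (-0.67) were also short of 2-fold.

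The positive control, retinoic acid with forskolin, was set against DMSO in the same way. Of 20 measured genes, 4 were higher and 2 lower, against 4.34% and 3.15% of all genes. The median was 0.30, beside -0.03 over all genes, and the same 0.30 over the 18 members above the floor on both arrays, of which 3 were higher and 1 lower (3.93% and 3.10% of all such genes). Synpo had the largest difference of these, at least 32.3-fold higher. Dlg4 was 3.86-fold higher, on the 1 probe set described above.

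Gria2, the AMPA receptor subunit that limits calcium entry, had values of 10.10 with the positive control, 8.99 in DMSO, 9.05 with KHS101 at 5 uM and 8.94 at 1.7 uM. The retinoid array was the high one, and the remaining 3 lay close together. It was 2.16-fold higher than DMSO, and its other probe set differed by 0.92. Gria3 differed by 0.69 in the same direction on the log2 scale and Gria4 by -0.76. The other probe sets of Gria4 differed by -1.01, past 2-fold, and by -0.47, and that of Gria3 by 0.80. Ndrg4, a neuronal gene of the NDRG family, had values of 9.85 with the positive control, 8.68 in DMSO, 9.22 at 5 uM and 9.11 at 1.7 uM. DMSO was lowest, and the retinoid array was 2.26-fold above it.

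Lower with the positive control were Ncs1 and Camk2b. Ncs1 encodes neuronal calcium sensor 1, and its values were 4.72 with the positive control, 7.79 in DMSO, 8.58 with KHS101 at 5 uM and 8.11 at 1.7 uM. The retinoid array alone was at the floor, at least 6.92-fold below DMSO, and the KHS101 arrays were not called against DMSO. The other 3 probe sets of Ncs1 were at the floor on all arrays. Camk2b was 2.22-fold lower on the probe set used, and the other probe set differed by -1.32. Of the 6 vesicle genes 0 were called, where 4.34% of all genes were higher and 3.15% lower. Of their differences 5 were above 0, and the range was -0.02 for Rab3a to 0.81 for Syn1.

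Some astrocyte markers moved with this treatment. Of 3 measured, 2 were higher with the positive control, S100b and Aldoc, and 0 lower, beside 4.34% and 3.15% of all genes. The other, Slc1a3, differed from DMSO by 0.02. The summed level was 2.05 times that in DMSO, against 0.84 with KHS101 at 5 uM and 1.04 at 1.7 uM. Gfap, Aqp4, Slc1a2, Gja1 and Aldh1l1 were at the floor on all arrays. The part of glial cells or of immature neurons in the values of Gria2, Ndrg4 and Dlg4 was not tested.

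**Figure D3:**
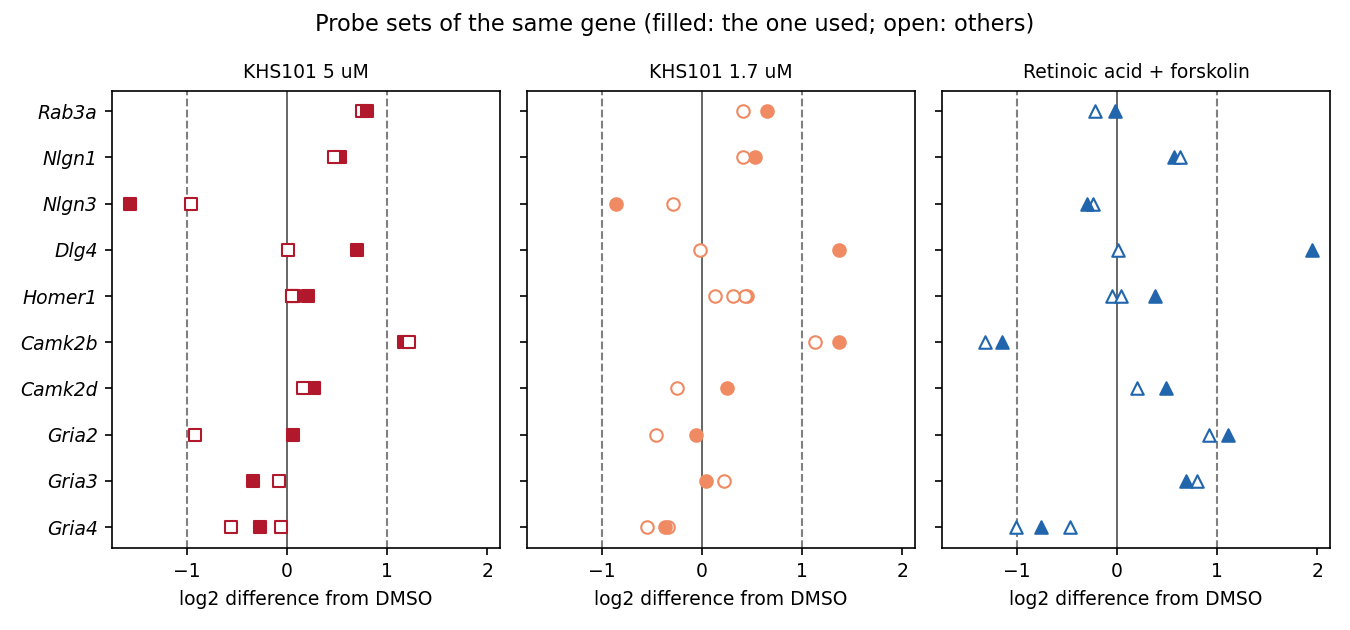
Log2 difference from DMSO for genes in which several probe sets were above the floor on some array, in 1 panel for each treatment; filled symbols are the probe set used and open symbols the others, and dashed lines mark 2-fold. Both probe sets of Camk2b pass 2-fold in each panel, whereas the other probe set of Dlg4 stays near 0.

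The KHS101 arrays were also compared with the positive control itself. At 5 uM, 5 of 22 measured members were higher than with the positive control and 8 lower, where 8.94% and 10.2% of all genes were. At 1.7 uM 5 were higher and 3 lower, against 5.93% and 5.39%. The medians were -0.45 and -0.38, beside 0.00 and 0.00 over all genes. Gad1 and Ncs1 at both concentrations, Nefm at 5 uM and Kcna1 at 1.7 uM were measured only through the KHS101 arrays, so that 3 of the 5 higher calls at each concentration are bounds. Among the 18 members above the floor on both arrays at 5 uM, 2 were higher and 7 lower (8.52% and 9.70% of all such genes), with a median of -0.68, and among the 19 at 1.7 uM, 2 were higher and 3 lower (5.55% and 5.04%), with a median of -0.56. Higher at both concentrations were Ncs1, by at least 3.58 and 3.11 on the log2 scale, Camk2b, 4.99-fold and 5.74-fold, Gad1, at least 7.75-fold and 4.12-fold, and Eno2, 2.96-fold and 2.93-fold. Camk2b was the single member called in opposite directions against DMSO by KHS101 and by the positive control. Lower at both were Synpo (3.74-fold and 3.02-fold), Scn3a (2.84-fold and 3.32-fold) and Gria2 (2.07-fold and 2.25-fold). At 5 uM alone Syt11 was 3.01-fold, Nlgn3 2.42-fold, Dlg4 2.37-fold and Gria3 2.04-fold lower, and Syn1 at least 2.49-fold. The other probe set of Gria2 differed by -1.84 and -1.38 in these comparisons. At 5 uM the other probe sets above the floor of Nlgn3, Dlg4 and Gria3 differed by -0.72, 0.00 and -0.87, all short of 2-fold.

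A wider list of 217 genes of the same machinery, which holds none of the 47, put these values beside their neighbours. Of these 186 were on the array. Against DMSO 9 of 58 measured genes were higher and 10 lower with KHS101 at 5 uM, 7 and 9 of 58 at 1.7 uM, and 6 and 3 of 57 with the positive control. As shares these are 15.5% and 17.2%, 12.1% and 15.5%, and 10.5% and 5.26%, beside 6.16% and 8.10%, 4.36% and 4.27%, and 4.34% and 3.15% of all genes. The medians were 0.00, 0.01 and 0.18.

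Of 21 measured adhesion and postsynaptic genes, 7 (33.3%) were lower at each KHS101 concentration, 2 were higher at 5 uM and 0 at 1.7 uM, and the medians were -0.40 and -0.22. Over all genes 8.10% were lower at 5 uM and 4.27% at 1.7 uM. C1ql1, a secreted synaptic organiser, had values of 2.30 at 5 uM, 5.19 at 1.7 uM, 8.22 with the positive control and 8.30 in DMSO. It was at the floor at 5 uM, at least 9.87-fold below DMSO, and 8.66-fold below it at 1.7 uM. The adhesion gene Lrrc4 was at least 8.51-fold lower at 5 uM and 7.20-fold at 1.7 uM, Sez6 was 8.78-fold lower at 5 uM, and Cadm1 was 3.34-fold lower at 1.7 uM. Homer3, a scaffold of the Homer family, was 2.40-fold higher at 5 uM, and Camk2n1, an inhibitor of CaMKII, at least 2.31-fold. Camk2n1 had a value of 6.21 at 5 uM, and with a floor of log2 = 6 it would not reach 2-fold. With the positive control 2 of 20 were higher (10.0%) and 3 lower (15.0%), beside 4.34% and 3.15% of all genes: Lrrc4c was 4.14-fold and Sez6 2.66-fold higher, and Camkk2, a kinase upstream of other calmodulin kinases, was 3.41-fold, Homer3 2.14-fold and Camk2g 2.02-fold lower. Homer3 (5.22, beside 6.32 in DMSO) and Camk2g (5.02, beside 6.03) were close to the floor with the positive control. With a floor of log2 = 6 neither would reach 2-fold.

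Among other voltage-gated channel genes, 2 of 9 measured (22.2%) were higher at 5 uM, 3 (33.3%) at 1.7 uM and 3 with the positive control, where 6.16%, 4.36% and 4.34% of all genes were. Kcnq5, a subunit of the M-current potassium channel, had values of 9.44 at 5 uM, 9.29 at 1.7 uM, 9.37 with the positive control and 7.68 in DMSO, so that DMSO alone was low. The sodium channel beta subunit Scn3b was 2.42-fold, 2.08-fold and 2.14-fold higher in the same order of treatments. Its values were 6.84, 6.63 and 6.67, beside 5.57 in DMSO, and with a floor of log2 = 6 none of these would reach 2-fold. Kcna2, a partner of Kcna1 in axonal channels, was 3.33-fold higher at 1.7 uM and 4.74-fold with the positive control. Kcnmb4, a subunit of calcium-activated potassium channels, was 9.86-fold and 4.32-fold lower with KHS101 at 5 uM and 1.7 uM, and the single lower gene of this group.

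Vesicle and release genes outside the members had 1 of 17 higher and 2 lower at 5 uM, 1 and 1 at 1.7 uM, and 0 with the positive control. The 5.88% that were higher at 5 uM lay near the 6.16% of all genes, as did the 5.88% higher and lower at 1.7 uM near 4.36% and 4.27%, and the 11.8% lower at 5 uM stood beside 8.10%. The vesicle glycoprotein gene Sv2b was 4.81-fold higher at 5 uM and 2.93-fold at 1.7 uM. Its paralogue Sv2a was 2.01-fold lower at 5 uM, a call that both other scalings of the arrays removed. Sytl2, which links vesicles to Rab27, was at least 10.6-fold lower at 5 uM and 4.35-fold at 1.7 uM. Of 6 measured transmitter genes, 3 (50.0%) were higher at each KHS101 concentration and 0 lower, beside 6.16% and 4.36% of all genes higher: the neutral amino acid carrier Slc1a4 by 4.27-fold and 3.27-fold, the glycine carrier Slc6a9 by 3.38-fold and 2.84-fold, and the GABA-degrading enzyme Abat by at least 2.22-fold and 2.51-fold. Abat had values of 6.15 at 5 uM and 6.33 at 1.7 uM, and with a floor of log2 = 6 neither would reach 2-fold. Only 5 of the 46 other genes of transmitter receptors and receptor-associated proteins on the array were measured. Of these, Grina, which is not itself a transmitter receptor, was 2.02-fold higher with KHS101 at 5 uM, beside 6.16% of all genes higher. Gabbr1, a GABA-B receptor subunit, was 2.09-fold higher with the positive control, beside 4.34%, a call that quantile normalisation removed. Its value there was 6.76, beside 5.70 in DMSO, and with a floor of log2 = 6 it would not reach 2-fold.

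**Figure D4:**
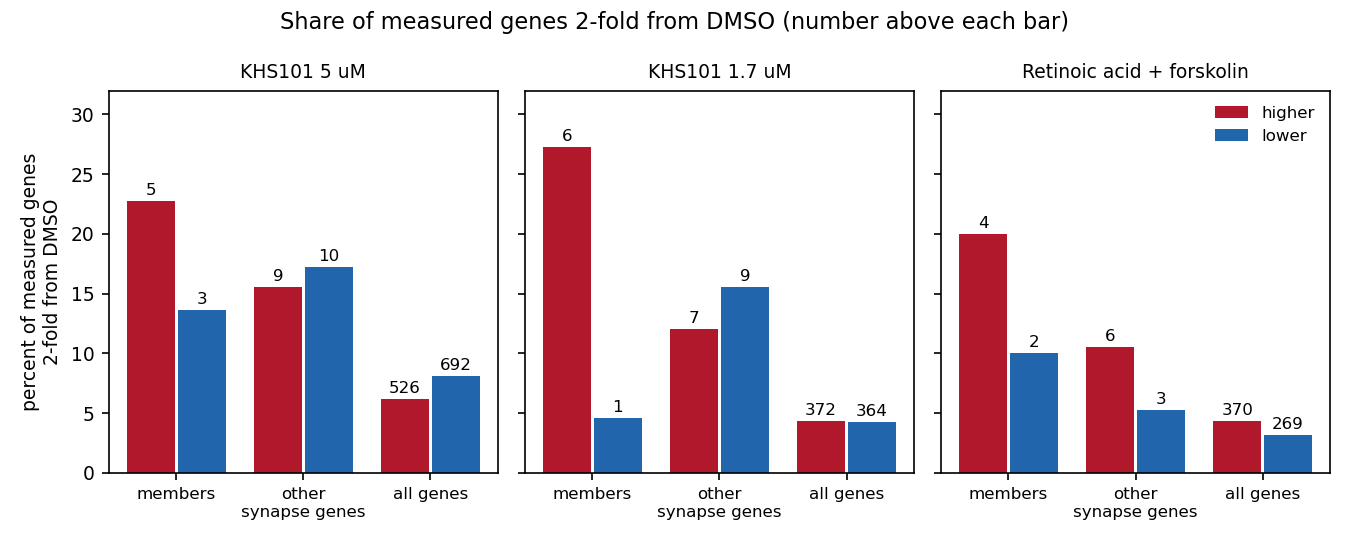
Percent of measured genes that were 2-fold higher or lower than DMSO among the 47 listed genes (members), the wider list of other synapse and channel genes and all named genes, in 1 panel for each treatment, with the number of genes above each bar. Members had 5 higher and 3 lower at 5 uM, 6 and 1 at 1.7 uM, and 4 and 2 with the positive control.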

How the data were processed

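Total RNA of 4 cultures was amplified to biotin-labelled RNA for Affymetrix 3' arrays, 1 a group, per the labels' protocols. The authors deposited a log2 expression value for each of 31099 probe sets. The submitters' processing notes name GCRMA and R 2.6.2, and the build behind the probe sets was not given in the sources used. At equal ranks the arrays differed by a median of 0.06, so a shift of all genes one way could not be seen. Detection calls were not used here, and a floor of log2 = 5 took their place.

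Of the probe sets, 20826 had 1 gene symbol and 436 several; 57 controls and 9780 unnamed ones were left out, as were those with several symbols. Each gene was read from the probe set whose mean over the arrays was highest. No test was run, since no group has a replicate. Differences, calls at 2-fold and counts were computed for 6 comparisons with Python 3.11.15, pandas 2.3.3 and numpy 2.4.6, tested on simulated data, and drawn with matplotlib 3.10.9. Promoter windows came from RefSeq, build GRCr8, and the motifs and printed windows were chosen after the values were seen. Summed marker levels are sums of unlogged values after the floor.

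The 47 genes and the lists were chosen with earlier results of these data known. Named with all 4 values is each member called against DMSO or between KHS101 concentrations, and from each wider list up to 3 genes a direction with the largest difference. Alternatives were no floor, a floor of log2 = 6, the mean of a gene's probe sets, 2 scalings and a 3-fold threshold.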

Additional observations from a re-analysis of the deposited data

How the results depend on the processing

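Shifting the arrays to one median or quantile normalisation left each count of members higher or lower within 1.5 times, and each median within 0.1. Without a floor, where all 47 genes count as measured and most differences lie near 0, the counts also stayed within 1.5 times, but the medians were 0.0209 for KHS101 5 uM, -0.0271 for 1.7 uM and 0.0311 for retinoic acid with forskolin against DMSO, and -0.0081 and -0.0729 for KHS101 5 uM and 1.7 uM against retinoic acid with forskolin. With a floor of log2 = 6, 0 members were higher and 0 lower between the KHS101 concentrations, and the median of 5 uM against retinoic acid with forskolin was -0.29.

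With the mean of a gene's probe sets, genes whose other probe sets lie at the floor were no longer measured, and 17 to 19 members remained in the comparisons whose values moved. Against DMSO, 3 members were then higher at 5 uM (median 0.0239), 3 at 1.7 uM (median -0.0056), and 2 higher and 1 lower with retinoic acid and forskolin (median 0.17). Against retinoic acid with forskolin, 3 were higher and 3 lower at 5 uM (median -0.24), and 3 were higher at 1.7 uM (median -0.24). At a 3-fold threshold 3 members were higher and 0 lower at 5 uM, 0 were lower at 1.7 uM, and 2 were higher and 1 lower with retinoic acid and forskolin against DMSO. Between KHS101 concentrations 0 were higher, and for 5 uM against retinoic acid with forskolin 3 were higher and 2 lower. Apart from the genes that each setting adds or removes, the cause of these shifts was not tested.

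Of 269 differences of named members recomputed and still measured, 250 kept their side of the threshold, 19 lost the call and 0 changed sign while called. Of the 19, 12 lost it at 3-fold, 5 with the floor of log2 = 6, 1 with the mean of probe sets and 1 with quantile normalisation. Differences that a setting left unmeasured are not in these counts. With the mean of probe sets 33 were kept and 1 was weaker, whereas 47 were kept without a floor. The calls of Synpo and Ncs1 against DMSO were among those lost in this way. Differences between genes near the floor are limited by the signal over background, and 1 array a group leaves the spread between cultures unknown.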

Other observations

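The genes of CaMKII and its partners, set side by side after their values were seen, did not move as one. Camk2a was at the floor on all arrays. Camk2b stood above DMSO at both KHS101 concentrations and below it in the positive control, retinoic acid with forskolin, on both probe sets. Camk2d differed from DMSO by between 0.26 and 0.49 on the log2 scale over the 3 treatments on the probe set used. Its other probe set above the floor differed by 0.16 at 5 uM, -0.25 at 1.7 uM and 0.20 with the positive control, so the probe sets differ in sign at 1.7 uM. Camk2g had log2 values of 5.90 with KHS101 at 5 uM, 5.65 at 1.7 uM, 5.02 with the positive control and 6.03 in DMSO. Camk2n1, the inhibitor, had values of 6.21, 5.69, 4.85 and 3.50 in the same order, with the retinoid and DMSO arrays at the floor. Camkk2 had values of 6.73, 6.99, 5.35 and 7.12. The retinoid array was therefore the lowest of the 4 for Camk2b, Camk2g and Camkk2.

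The potassium channel genes Kcna1 and Kcna2, which form axonal channels together, were both higher at 1.7 uM than at 5 uM; this pair was also chosen after its values were seen. Kcna2 had values of 6.19 with KHS101 at 5 uM, 7.33 at 1.7 uM, 7.84 with the positive control and 5.59 in DMSO. Unlike Kcna1 it was above the floor on all arrays. Gad1 and Abat, which make and degrade GABA, were both at the floor in DMSO and above it at both KHS101 concentrations, and Abat was also above it with the positive control, at 5.93.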
